A study of Rattus norvegicus with 6 samples.

Results

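The collagen chains examined here were the 41 of the 22081 genes of the expression table whose symbol consists of Col, the number of the collagen type, the letter a and the number of the chain. They fell into 9 classes, namely 10 fibrillar chains, 9 fibril-associated chains (FACIT), 6 basement membrane chains of type IV, 5 beaded filament chains of type VI, 3 network chains of types VIII and X, 3 transmembrane chains, 2 multiplexins, the anchoring fibril chain Col7a1 and 2 other chains. Col1a2, Col6a3, Col21a1 and Col23a1 were not analysed here. RNA came from rupture-prone intracranial aneurysms at a communicating artery, with no visible haemorrhage (IA lesions, n = 3). The other samples were the rest of the circle of Willis, the ring of arteries at the base of the brain (n = 3). Both tissues came from each of 3 rats, and each lesion was set against the artery of its own animal. All 3 animals were female Sprague Dawley rats, 10 weeks old at purchase, and everything done to them applies to both tissues. Their ovaries had been removed, the left carotid, right external carotid, right pterygopalatine and left renal arteries had been tied, and their chow contained 3-aminopropionitrile (0.12%) beside 8% salt. 3-aminopropionitrile blocks lysyl oxidase, the enzyme that cross-links collagen and elastin, so that the circle of Willis is a control artery of a treated rat and not an untreated vessel. The tissue was taken on day 63 by the sample labels, while the animal methods of the study also give an earlier day for the RNA samples. Each sample was the dissected vessel as a whole, with no sorting of cells, so that a change in the number of cells of a type and a change in RNA per cell cannot be told apart.

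Collagens are secreted or membrane-bound proteins whose alpha chains wind around each other into a rigid helix. Fibrillar collagens give the wall of an artery its tensile strength, type IV collagen forms the sheet on which endothelial and smooth muscle cells sit, and the FACIT, beaded filament and multiplexin collagens link fibrils and basement membranes to each other. In an artery, fibroblasts of the adventitia and smooth muscle cells of the media are known to make most of the fibrillar collagen.

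The libraries held 65823027 to 70705938 counts assigned to genes. Smooth muscle markers, which define the arterial wall, were detected in all 6 libraries, with a summed level of 2963 to 8170 TPM (reads scaled by gene length and to the same total in each library) over 8 genes in the lesions and of 4981 to 14560 in the circle of Willis. The lesion of animal 2 also held transcripts of choroid plexus (summed TPM of 14010 over 7 genes, against 248.9 to 436.4 in the other 5 libraries) and of myelin (4560 over 8 genes, against 429.5 to 755). Most of that choroid plexus sum came from 1 gene, Ttr, at 13030 TPM. Ptgds, a prostaglandin synthase of the meninges, took 2.64% and 2.41% of the TPM in the lesions of animals 2 and 3 and 8.51% to 13.2% in the other 4 libraries. The part of choroid plexus and myelin transcripts in the collagen values was not tested. The summed collagen share is also given below without Ptgds.

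The genes of type IV collagen lie head to head in pairs, which is known to place a control region between the chains of a pair. A promoter window of at least 1 gene of each pair is shown because the partners are compared with each other below. Those of Col4a2 and Col4a4 are not printed. The windows come from RefSeq (GRCr8) and run from 250 bases before to 50 bases after the start of the gene, 5′ to 3′ on the strand of the gene. The capitals mark the CCAAT box, spelled as in its name, and the GC box, GGGCGG, on either strand. Col4a1 (chr16:84885347-84885646, plus strand), Col4a3 (chr9:91323740-91324039, plus strand), Col4a5 (chrX:109907109-109907408, plus strand) and Col4a6 (chrX:109905895-109906194, minus strand) read as follows.
Col4a1: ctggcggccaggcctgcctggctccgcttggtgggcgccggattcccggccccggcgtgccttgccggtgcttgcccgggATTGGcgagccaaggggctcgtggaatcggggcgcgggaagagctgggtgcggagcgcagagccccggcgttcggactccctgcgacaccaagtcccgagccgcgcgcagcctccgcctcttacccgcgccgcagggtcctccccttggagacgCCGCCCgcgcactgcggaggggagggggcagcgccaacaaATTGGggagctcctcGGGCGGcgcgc
Col4a3: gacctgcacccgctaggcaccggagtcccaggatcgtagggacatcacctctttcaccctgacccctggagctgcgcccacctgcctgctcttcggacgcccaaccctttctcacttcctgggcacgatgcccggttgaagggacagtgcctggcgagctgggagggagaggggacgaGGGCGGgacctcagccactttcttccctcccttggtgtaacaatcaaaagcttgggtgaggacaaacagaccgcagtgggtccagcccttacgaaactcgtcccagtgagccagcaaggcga
Col4a5: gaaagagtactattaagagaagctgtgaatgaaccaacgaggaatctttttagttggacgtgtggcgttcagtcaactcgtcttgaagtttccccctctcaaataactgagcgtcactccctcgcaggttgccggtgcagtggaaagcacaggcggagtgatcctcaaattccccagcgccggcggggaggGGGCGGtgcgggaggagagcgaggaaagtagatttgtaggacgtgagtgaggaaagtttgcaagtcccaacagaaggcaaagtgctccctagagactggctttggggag
Col4a6: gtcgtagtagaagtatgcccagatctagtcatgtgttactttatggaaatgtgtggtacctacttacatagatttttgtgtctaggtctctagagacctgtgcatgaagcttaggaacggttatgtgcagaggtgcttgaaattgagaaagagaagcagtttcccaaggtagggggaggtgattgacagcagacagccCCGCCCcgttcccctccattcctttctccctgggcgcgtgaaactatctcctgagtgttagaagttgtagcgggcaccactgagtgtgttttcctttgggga
The start of Col4a2 lies within the Col4a1 window, 77 bases from that of Col4a1 on the opposite strand, and the starts of Col4a3 and Col4a4 are 413 bases apart. Col4a5 and Col4a6 start 1415 bases apart in GRCr8. In the older Rnor6 annotation that the count table uses, the distances are 83601, 374 and 295823 bases for the pairs of chains 1 and 2, 3 and 4, and 5 and 6. The Col4a1 window holds 2 CCAAT boxes and 2 GC boxes, and the other 3 windows hold 1 GC box each. A promoter window was found for 32 of the 41 chains, and the first listed for each gene was used. GGGCGG occurred in 18 of these 32 (56.2%) and in 33.1% of all 33469 windows, and CCAAT occurred in 10 (31.2%) and in 37.5%. The TATA box (TATAAA) was found in 3 collagen windows and in 14.2% of all windows, and the AP-1 site (TGANTCA) in 1 and in 7.33%. The 33469 windows were not reduced to 1 per gene, so that the shares are not in like units. The matches describe letters in a window and are not evidence of binding.

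The 41 collagen chains together took a larger share of the lesion in 2 of 3 animals. Col1a2, Col6a3, Col21a1 and Col23a1 are missing from this sum and from the collagen TPM used below. The summed TPM of the 41 chains made up 0.227%, 0.906% and 0.685% of all TPM in the lesions of animals 1, 2 and 3, and 0.224%, 0.256% and 0.227% in the circle of Willis. The lesion of animal 1 thus lay within the range of the control arteries, and the lesions of animals 2 and 3 lay above all of them. On the log2 scale the share differed by 0.02, 1.82 and 1.6 within the animals, a mean of 1.14 (standard error 0.57, two-sided exact permutation test within animals, p = 0.25, the smallest that 8 labellings allow). With mitochondrially encoded genes and Ptgds left out of the total, an alternative chosen after seeing the data, the mean was 0.94 (exact permutation test, p = 0.5). Without Col1a1 and Col3a1 the mean was 0.62 (exact permutation test, p = 0.5), with -0.06 in animal 1, 1.17 in animal 2 and 0.75 in animal 3.

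The composition within the 41 chains also differed between the tissues. Fibrillar chains held 45.6%, 70.0% and 68.8% of the collagen TPM in the lesions of animals 1, 2 and 3, against 42.9%, 48.9% and 41.4% in the circle of Willis. Beaded filament chains held 21.3%, 8.52% and 10.8%, against 22.0%, 20.8% and 19.3%. The share of transmembrane chains was 0.716%, 0.337% and 0.204% in the lesions against 1.69%, 2.08% and 2.13% in the circle of Willis, lower in 3 of 3 animals and without overlap. Network chains had a smaller share than in the control artery in each animal too, at 4.90%, 2.42% and 2.36% against 6.79%, 5.59% and 6.70%. These shares sum to a whole within a library, so that a gain of Col1a1 lowers the share of every other class. The smallest exact permutation p for any such share was again 0.25.

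**Figure D1:**
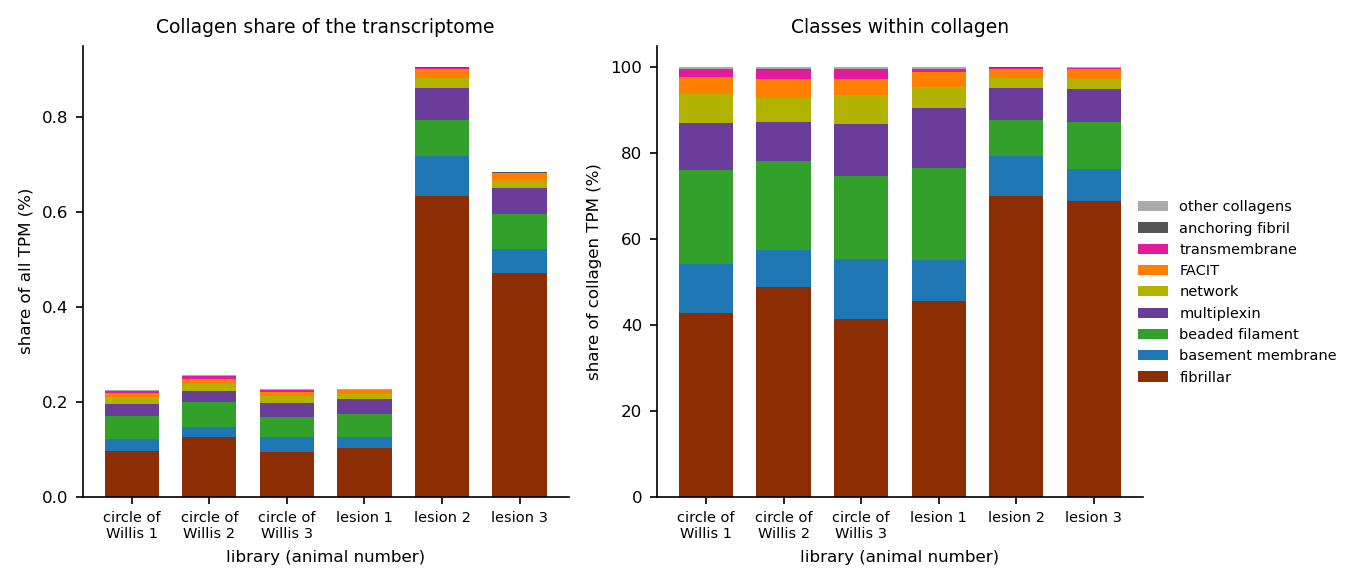
The 41 collagen chains by class in the 6 libraries, as a percent of all TPM (left, bars from 0) and of their summed TPM (right). Lesions 2 and 3 stand at 0.906% and 0.685% of all TPM and the other 4 libraries between 0.224% and 0.256%, and the fibrillar part is largest in lesions 2 and 3.

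The chains were then compared singly, by the rule of the study that a gene be over 1.5-fold higher in each of 3 lesions, and by the quasi-likelihood test of edgeR, in which each animal was a block. Ratios were taken of counts normalized for library size by TMM (trimmed mean of M values), and log2 ratios were taken after adding a prior count of 2. By the fold rule 4 of 41 chains (9.76%) were higher in all 3 animals, namely Col15a1, Col20a1, Col5a3 and Col6a4, where 3.00% of the 18588 genes with a count and 2.75% of the 15367 genes tested were. Another 5 chains (12.2%) were lower in all 3 animals, namely Col4a6, Col13a1, Col9a2, Col19a1 and Col25a1, where 5.49% and 5.51% were. The study used the same threshold on these samples, so that the counts are no independent evidence. Without animal 1, 18 chains (43.9%, against 10.7% of the genes tested) were higher and 11 (26.8%, against 12.5%) were lower in the remaining animals. In animal 1 alone, 6 chains were over 1.5-fold higher and 5 lower (14.6% and 12.2% of chains, against 11.2% and 20.2% of genes).

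EdgeR called 0 of the 41 chains, and 0 of 15367 genes tested, at an adjusted p under 0.05 in either direction, and limma-voom called 0 as well. At an unadjusted p under 0.05, edgeR had 12 chains (29.3%) higher, where 8.63% of genes were, and 7 chains (17.1%) lower, where 12.0% were. Leaving out animals 1, 2 and 3 in turn changed the 12 to 20, 2 and 4, and the 7 to 7, 6 and 4. DESeq2 with the same block called 11 chains higher (26.8%, against 5.47% of genes) and 4 lower (9.76%, against 6.44%) at an adjusted p under 0.05. All 41 chains passed the filter on low counts. The median log2 ratio over the chains was 0.03, 0.53 and 0.65 in animals 1, 2 and 3, against 0.00, -0.05 and -0.04 over all genes tested. Of the 41 chains, 15 lay above 0 and 10 below 0 in each of 3 animals, where 3467 and 4143 of the 15367 genes tested did.

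**Figure D2:**
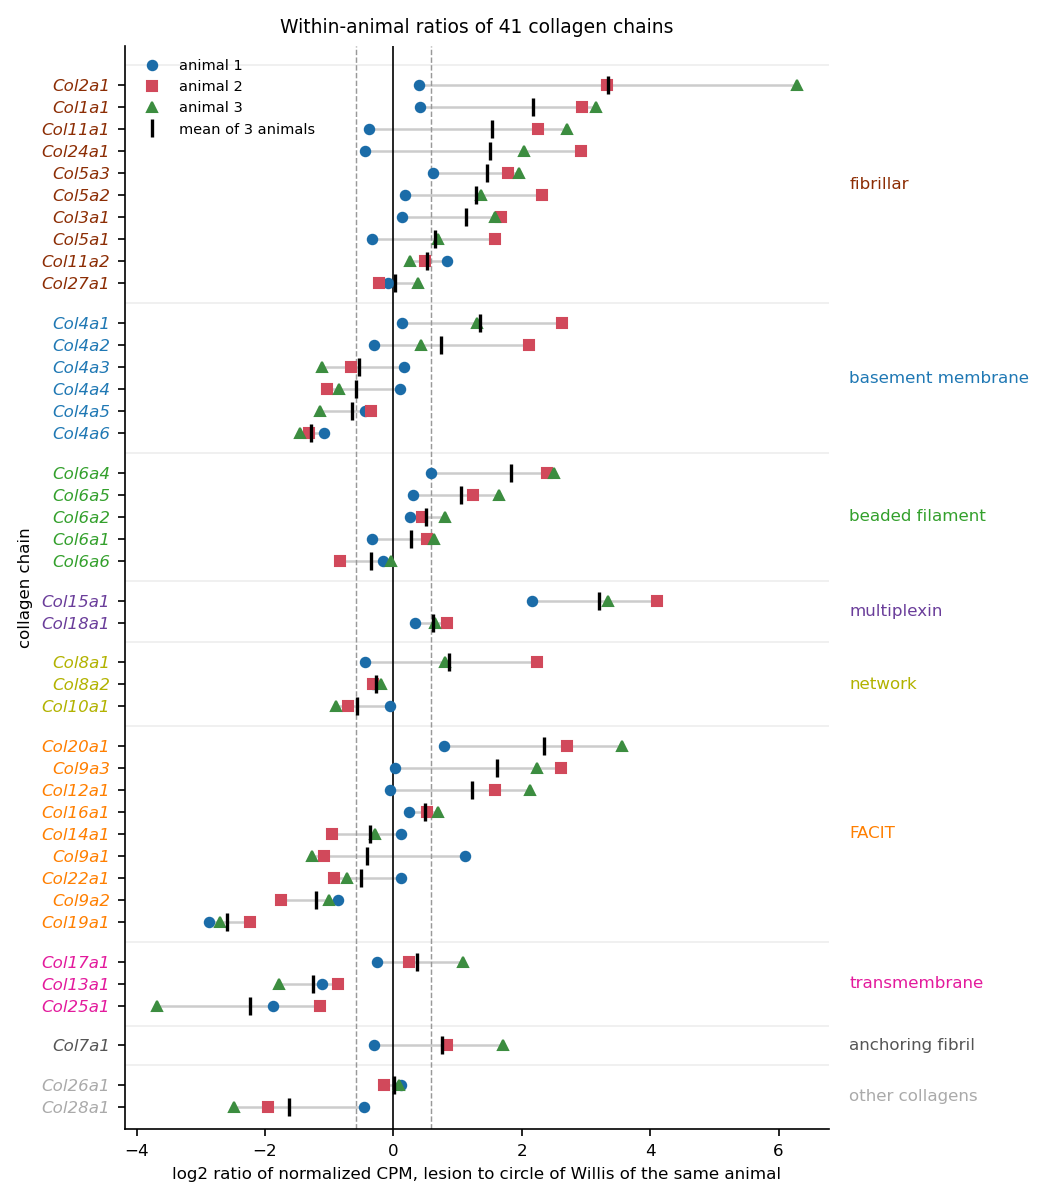
Log2 ratio of normalized counts, lesion to circle of Willis of the same animal, for 41 collagen chains by class, with a symbol per animal, the mean of 3 animals as a black bar and dashed lines at 1.5-fold. Animal 1 lies near 0 for most fibrillar chains while animals 2 and 3 lie to the right, and Col4a6, Col13a1, Col9a2, Col19a1 and Col25a1 lie left of the dashed line in all 3 animals.

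Among the fibrillar chains analysed, Col1a1 had the highest level in the lesions of animals 2 and 3. Col1a1, the main chain of type I collagen (ENSRNOG00000003897, chromosome 10 of Rnor6 from 82745801 to 82762789), had a TPM of 447, 3605 and 2953 in the lesions of animals 1, 2 and 3 and of 363, 449 and 334 in the circle of Willis. Each lesion was above its own artery, yet the lesion of animal 1 did not exceed the highest artery. The log2 ratios were 0.42, 2.94 and 3.15, with a mean of 2.17 (standard error 0.88, edgeR adjusted p = 0.209, DESeq2 adjusted p = 0.249). Col1a1 made up 19.7%, 39.8% and 43.1% of the collagen TPM in the lesions against 16.2%, 17.6% and 14.8% in the circle of Willis. Col3a1, the chain of type III collagen that copolymerizes with type I in distensible vessels, led the chains analysed in all 3 control arteries and in the lesion of animal 1. Its TPM was 475, 2173 and 1490 in the lesions against 474, 651 and 498 in the circle of Willis, and the mean log2 ratio was 1.13 (standard error 0.50, with edgeR's adjusted p = 0.227 and DESeq2 adjusted p = 0.016). As a share of collagen TPM Col3a1 stayed between 21.0% and 25.4% in all 6 libraries.

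The chains of type V collagen, which nucleate type I fibrils and set their width, differed from each other. Col5a3, a chain of minor type V molecules, was higher in all 3 animals, with a TPM of 7.71, 30.2 and 21.7 in the lesions against 5.48, 8.35 and 5.58 in the circle of Willis. Its log2 ratios of 0.61, 1.79 and 1.96 average 1.46 (standard error 0.42, edgeR adjusted p = 0.181, DESeq2 adjusted p = 0.000394), and animal 1 passed the fold rule narrowly, at 1.53-fold. The lesion of animal 1 remained below the artery of animal 2. Col5a2 had 40.5, 321 and 111 TPM in the lesions against 38.8, 61.9 and 43.2, and Col5a1 had 41.6, 179 and 64.8 against 57.1, 56.9 and 40.02. Their mean log2 ratios were 1.29 (standard error 0.62) and 0.65 (standard error 0.56). In animal 1 Col5a2 was thus close to its control artery and Col5a1 was under it.

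The cartilage-type fibrillar chains were at low levels in the arteries. Col2a1, the main fibrillar collagen of cartilage, had a TPM of 0.99, 1.50 and 30.2 in the lesions against 0.81, 0.13 and 0.38 in the circle of Willis. All lesions were above all arteries, and the lesion of animal 3 stood far from the other lesions, at log2 ratios of 0.40, 3.33 and 6.28 (mean 3.34, standard error 1.70, edgeR adjusted p = 0.257). Col11a1, a minor chain of cartilage fibrils that activated fibroblasts also make, had 1.67, 13.9 and 26.0 TPM against 2.37, 2.77 and 3.97, with the lesion of animal 1 below its artery. Col11a2 had 5.87, 5.06 and 6.73 TPM against 3.60, 3.46 and 5.64, and its log2 ratio was largest in animal 1 (0.83), with 0.49 and 0.26 in animals 2 and 3. Of 7 chondrocyte markers tested, 3 were over 1.5-fold higher in all 3 animals, namely the proteoglycan Acan, the matrix protein Comp and the transcription factor Sox9, and none was lower in all 3. Other markers of the list were lower in some lesions. The log2 ratios in animals 1, 2 and 3 were 0.56, -2.16 and -2.16 for Hapln1, a link protein of cartilage matrix, and 0.24, -1.76 and -2.25 for Chad, a cartilage matrix protein. Those of Cnmd, a cartilage glycoprotein, were 1.18, 0.26 and -2.51, the lowest in the animal with the highest Col2a1. The summed TPM of the 8 chondrocyte markers was 17.0, 58.8 and 44.8 in the lesions against 7.79, 9.24 and 10.5 in the circle of Willis. Matn1, a defining cartilage gene, was near 0 in every library and was not tested. Its TPM was 0.044, 0.050 and 0 in the lesions against 0.035, 0.074 and 0.023 in the circle of Willis. Whether the same cells held these transcripts and Col2a1 was not tested. Col24a1 had 0.25, 1.53 and 1.13 TPM against 0.37, 0.18 and 0.27 (mean log2 ratio 1.50, standard error 1.00), and Col27a1 had a mean log2 ratio of 0.03 (standard error 0.19). Over the 10 fibrillar chains the median log2 ratio was 0.15, 2.03 and 1.77 in animals 1, 2 and 3, 6 chains lay above 0 in all 3 animals and none below, where 3467 and 4143 of the 15367 genes tested did. Col2a1, Col11a1, Col24a1 and Col27a1, and likewise Col9a1, Col10a1, Col14a1, Col17a1, Col22a1, Col6a5 and Col6a6 below, fell outside the rule for chains shown in full and were described after their values had been seen.

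Type IV collagen split by pair. Col4a1 and Col4a2, the chains of the common network under all endothelium and around smooth muscle, were higher in the lesions of animals 2 and 3, while Col4a3 to Col4a6 were lower there. Col4a1 had a TPM of 116, 519 and 361 in the lesions against 115, 80.8 and 146.6 in the circle of Willis, and Col4a2 had 52.1, 261 and 115 against 70.3, 57.9 and 85.5. The mean log2 ratios were 1.35 (standard error 0.72, edgeR adjusted p = 0.247, DESeq2 adjusted p = 0.0245) and 0.74 (standard error 0.72). Both were highest in the lesion of animal 2, and in animal 1 neither chain was over 1.5-fold from its artery.

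The chains of the more specialized type IV networks were lower. Col4a6 (ENSRNOG00000056772, chromosome X of Rnor6 from 112405647 to 112473822), which pairs with Col4a5 in the basement membrane of smooth muscle, had a TPM of 5.37, 6.92 and 3.67 in the lesions against 12.3, 16.6 and 10.1 in the circle of Willis. The groups did not overlap, and the log2 ratios of -1.08, -1.32 and -1.46 were the closest to each other of any chain past 1.5-fold in 3 animals (mean -1.28, standard error 0.11, edgeR adjusted p = 0.159, DESeq2 adjusted p = 2.41e-07). Col4a5 had 28.6, 45.9 and 27.3 TPM against 42.5, 56.2 and 60.9, at a mean log2 ratio of -0.65 (standard error 0.25, edgeR adjusted p = 0.218), with the lesion of animal 2 inside the range of the arteries. Col4a3 had 3.33, 1.18 and 1.37 TPM against 3.22, 1.79 and 3.00, and Col4a4 had 10.03, 3.72 and 5.04 against 10.2, 7.31 and 9.03. Both were close to their artery in animal 1, at log2 ratios of 0.17 and 0.10, and lower in animals 2 and 3, at -0.66 and -1.12 for Col4a3 and -1.03 and -0.84 for Col4a4. Smooth muscle markers had median log2 ratios of -0.24, 0.26 and -2.51 over 8 genes in animals 1, 2 and 3. Of the 8, 2 lay below 0 in all 3 animals, namely Myh11 and Lmod1, and 0 lay above 0 in all 3. In animal 2 the list was split, with -0.49 for Myh11 and -0.52 for Lmod1 against 0.92 for Acta2 and 0.78 for Cnn1. The part of smooth muscle content in the value of Col4a6 was not tested.

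**Figure D3:**
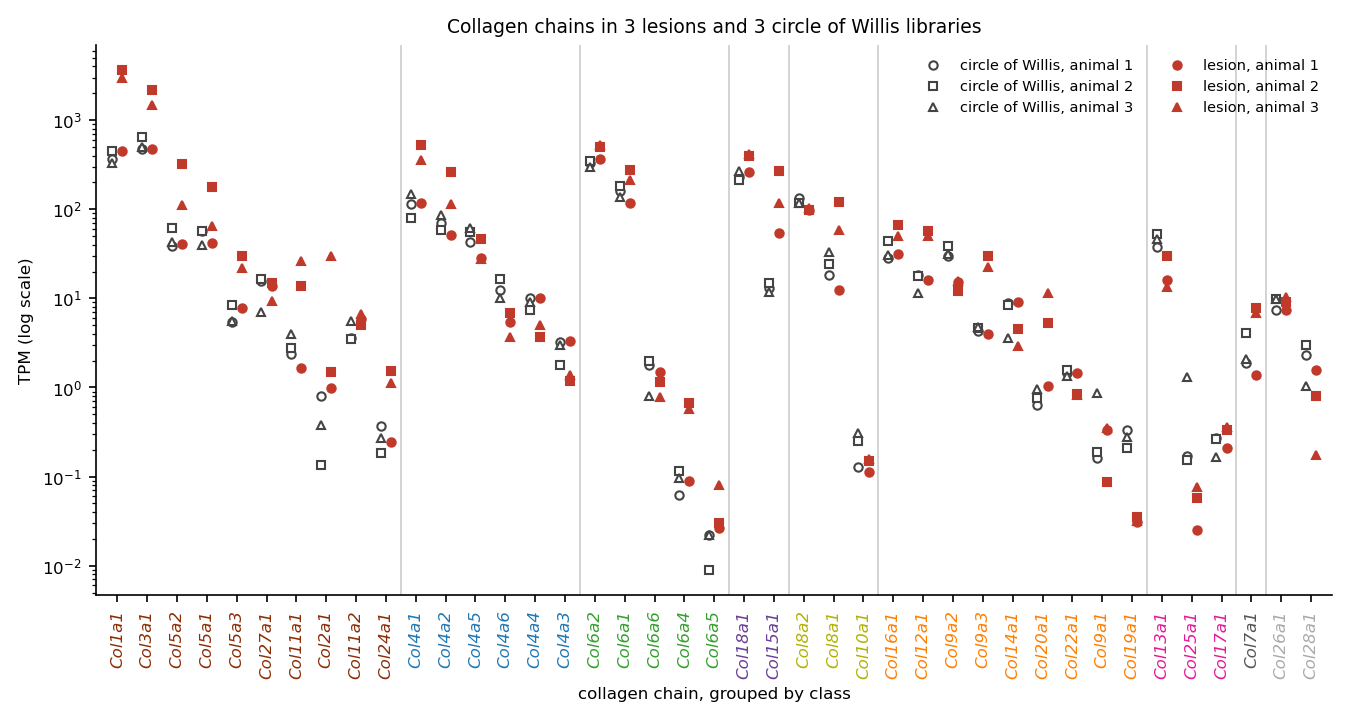
TPM on a log axis of 41 collagen chains, grouped by class, with open symbols for the circle of Willis and filled symbols for the lesions of the 3 animals. Filled symbols lie above all open ones for Col15a1, Col20a1, Col2a1, Col6a2 and Col6a5 and below all of them for Col4a6, Col13a1, Col9a2, Col19a1, Col25a1 and Col8a2.

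The ratio between partner chains within a library does not depend on how libraries are scaled, and 9 ratios were compared, of which the pairs of type IV are the first. The TPM of Col4a1 was 2.23, 1.99 and 3.15 times that of Col4a2 in the lesions and 1.63, 1.40 and 1.72 times in the circle of Willis. It was higher in 3 of 3 animals and without overlap, at a mean log2 difference of 0.61 (standard error 0.13). These are the chains whose starts are 77 bases apart in GRCr8 and 83601 bases apart in Rnor6. The size of a TPM ratio depends on the gene models of Rnor6, and whether these are complete was not tested. Col4a3 to Col4a4 was 0.331, 0.317 and 0.271 against 0.317, 0.245 and 0.332, a mean log2 difference of 0.05 (standard error 0.19). Col4a6 to Col4a5 was 0.188, 0.151 and 0.135 against 0.290, 0.295 and 0.166, lower in 3 of 3 animals by -0.63 on the log2 scale (standard error 0.19).

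Ratios among fibrillar chains also differed in the same direction in each animal. Col3a1 to Col1a1 was 1.06, 0.603 and 0.505 in the lesions against 1.31, 1.45 and 1.49 in the circle of Willis, lower in each animal and without overlap, at a mean log2 difference of -1.04 (standard error 0.38). Col5a1 to Col5a2 was 1.03, 0.557 and 0.586 against 1.47, 0.921 and 0.926, and the log2 differences of -0.52, -0.72 and -0.66 were alike in the 3 animals (standard error 0.06). Here animal 1 was like the others, while its summed collagen share was close to that of its artery. Col5a3 to Col5a1 was 0.186, 0.169 and 0.335 against 0.0959, 0.147 and 0.140, higher in 3 of 3 animals. Col6a1 to Col6a2 had a mean log2 difference of -0.23 (standard error 0.20) and did not have the same sign in all animals. For each of the ratios that differed the same way in 3 animals the two-sided exact permutation test gave p = 0.25, the smallest that 3 pairs allow, and p = 0.375 after Benjamini-Hochberg adjustment over the 9 ratios.

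**Figure D4:**
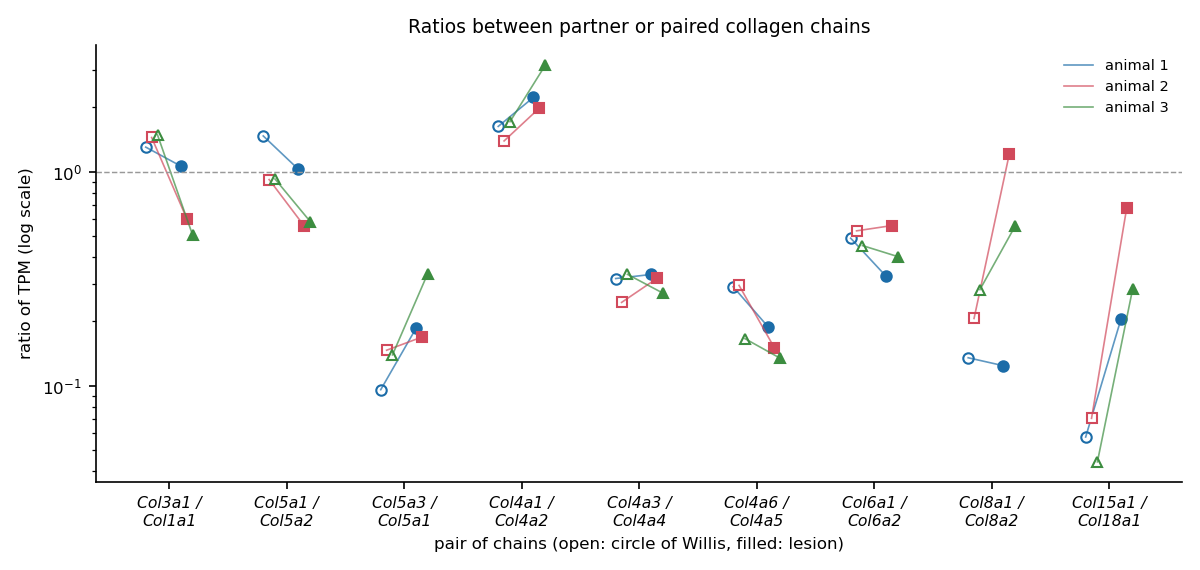
Ratio of the TPM of 2 collagen chains in the same library, on a log axis, for 9 pairs, with open symbols for the circle of Willis, filled symbols for the lesion and a line for each animal. The lines of all 3 animals slope down from artery to lesion for Col3a1 to Col1a1, Col5a1 to Col5a2 and Col4a6 to Col4a5, and up for Col5a3 to Col5a1, Col4a1 to Col4a2 and Col15a1 to Col18a1.

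The multiplexins, basement membrane collagens whose C-terminal fragments are known as inhibitors of vessel growth, held the largest mean log2 ratio of any chain with a mean TPM above 10 in the arteries. Col15a1 (ENSRNOG00000060381, chromosome 5 of Rnor6 from 62840360 to 62950240), which bridges fibrils to the basement membrane, had a TPM of 53.9, 269 and 119 in the lesions against 13.1, 14.9 and 11.8 in the circle of Willis. Every lesion was above every artery, by 4.47-fold, 17.3-fold and 10.1-fold within the animals. The mean log2 ratio was 3.20 (standard error 0.57, edgeR adjusted p = 0.169, DESeq2 adjusted p = 5.72e-14). It was the sole chain over 2-fold higher in all 3 animals. As a share of the collagen TPM it stood at 2.38%, 2.97% and 1.74% in the lesions against 0.585%, 0.584% and 0.519% in the circle of Willis. Col18a1, its relative in endothelial and epithelial basement membranes, had 263, 395 and 419.5 TPM against 228, 212 and 267.0, at a mean log2 ratio of 0.61 (standard error 0.15, edgeR adjusted p = 0.212, DESeq2 adjusted p = 0.0221). Col15a1 to Col18a1 was 0.204, 0.681 and 0.283 in the lesions against 0.0576, 0.0704 and 0.0441 in the circle of Willis. Endothelial markers had medians of -0.09, -1.35 and -1.63 over 7 genes in animals 1, 2 and 3. Single markers differed, with log2 ratios of -0.28, 0.84 and -0.92 for Erg and of -0.18, -1.69 and -1.67 for Vwf. The part of endothelium in the values of Col15a1 and Col18a1 was not tested.

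Most beaded filament chains, which surround cells as fine filaments, differed less. Col6a2 had a TPM of 364, 493 and 527 in the lesions against 329.8, 346 and 300.2 in the circle of Willis, all lesions above all arteries, at a mean log2 ratio of 0.51 (standard error 0.16, edgeR adjusted p = 0.243). Col6a1, its partner, had 118, 277 and 212 against 161.5, 183 and 136, with animal 1 below its artery and a mean log2 ratio of 0.28 (standard error 0.31). Col6a4 was higher in all 3 animals at a low level, its counts being 27, 177 and 171 in the lesions against 18, 31 and 28. Its mean log2 ratio was 1.83 (standard error 0.62, edgeR adjusted p = 0.208, DESeq2 adjusted p = 0.0322), and animal 1 stood at 1.55-fold, just past the threshold. With TPM in place of normalized counts, Col6a4 and Col5a3 no longer passed it. Col6a5 had 3 to 30 counts per library, and Col6a6 had a mean log2 ratio of -0.35 (standard error 0.25).

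FACIT chains, which sit on the surface of fibrils, went in opposite directions. Col20a1 was higher in all 3 animals, with a TPM of 1.03, 5.30 and 11.4 in the lesions against 0.64, 0.77 and 0.95 in the circle of Willis, and did not overlap between the groups (mean log2 ratio 2.35, standard error 0.82, edgeR adjusted p = 0.195, DESeq2 adjusted p = 0.000325). Col12a1, a FACIT of dense tissue under tension, had 16.2, 56.4 and 50.1 TPM against 18.4, 17.99 and 11.4, and Col16a1 had 31.1, 66.4 and 49.6 against 28.4, 44.1 and 30.6. The mean log2 ratios were 1.22 (standard error 0.66, edgeR adjusted p = 0.244, DESeq2 adjusted p = 0.0312) and 0.49 (standard error 0.13, edgeR adjusted p = 0.208). In animal 1 both were near their artery.

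Type IX collagen, a cartilage FACIT built from the products of 3 genes, had chains on both sides of 0. Col9a3 had a TPM of 4.01, 29.9 and 22.3 in the lesions against 4.29, 4.68 and 4.75 in the circle of Willis, at a mean log2 ratio of 1.62 (standard error 0.81, edgeR adjusted p = 0.23, DESeq2 adjusted p = 0.0149). Col9a2, in contrast, had 15.4, 12.1 and 15.6 TPM against 30.3, 39.1 and 31.6, so that all lesions were below all arteries, at a mean log2 ratio of -1.21 (standard error 0.28, edgeR adjusted p = 0.174, DESeq2 adjusted p = 0.000486). Col9a1 was scarce, its counts being 61, 14 and 62 in the lesions against 28, 31 and 150, and was higher in animal 1 and lower in animals 2 and 3. The 3 chains therefore followed 3 patterns across the animals. Of the remaining FACIT chains, Col14a1 and Col22a1 had mean log2 ratios of -0.37 and -0.51 (standard errors 0.31 and 0.32).

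Col19a1 and the transmembrane chain Col25a1 were lower in all 3 animals at very low counts. Col19a1, a FACIT that neurons are known to make, had counts of 5, 5 and 5 in the lesions against 51, 30 and 43 (mean log2 ratio -2.60, standard error 0.20, edgeR adjusted p = 0.174). Col25a1, a membrane collagen of neurons, had 2, 4 and 6 against 13, 11 and 100 (mean log2 ratio -2.24, standard error 0.76, edgeR adjusted p = 0.2). DESeq2 gave no adjusted p for either. By the median log2 ratio over 9 genes, neuron markers were lower in animals 2 and 3 and not in animal 1, at 0.21, -1.25 and -3.38. Their summed TPM was lower in each animal, at 12.0, 33.9 and 14.4 in the lesions against 17.1, 37.3 and 59.7 in the circle of Willis. No marker was at 0, and 2 of the 9 were over 1.5-fold lower in all 3 animals. The part of neurons in these values was not tested.

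Col13a1, a transmembrane collagen of cell adhesion sites, was well expressed and lower in each lesion. Its TPM was 16.0, 30.1 and 13.6 in the lesions against 37.6, 52.9 and 46.7 in the circle of Willis, without overlap, and the mean log2 ratio was -1.25 (standard error 0.27, edgeR adjusted p = 0.174, DESeq2 adjusted p = 0.000215). Arachnoid and meningeal markers were lower beside it, with medians of -0.16, -1.51 and -0.98 over 8 genes, 5 of which lay below 0 in all 3 animals and 2 of which were over 1.5-fold lower in all 3. The summed TPM of these 8 genes, nearly all of it from Ptgds, was 24710 to 108100 in the lesions against 86100 to 133200 in the circle of Willis, and none was at 0. Their part in the value of Col13a1 was not tested. Col17a1, the transmembrane collagen of hemidesmosomes, had 42 to 93 counts per library and a mean log2 ratio of 0.36 (standard error 0.39).

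The remaining classes held few chains. Col8a1 and Col8a2 are short-chain collagens of the network type that vascular cells make. Col8a2 had a TPM of 98.8, 99.2 and 104 in the lesions against 134, 118 and 118 in the circle of Willis, all lesions below all arteries by a small margin (mean log2 ratio -0.27, standard error 0.04, edgeR adjusted p = 0.308). Col8a1 had 12.3, 120.1 and 57.9 against 18.1, 24.4 and 33.3, so that its ratio to Col8a2 was 0.124, 1.21 and 0.558 against 0.135, 0.206 and 0.282, with animal 1 unlike the other animals. Col10a1, the collagen of hypertrophic cartilage, had 11 to 29 counts in each library and no excess in the lesions, at a mean log2 ratio of -0.56 (standard error 0.25). Its region overlaps Nt5dc1 on the opposite strand, and no other chain overlapped a gene of the table.

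Col7a1, the anchoring fibril chain, had a TPM of 1.39, 7.72 and 6.77 in the lesions against 1.86, 4.12 and 2.07 in the circle of Willis (mean log2 ratio 0.75, standard error 0.58). Col28a1, a collagen of peripheral glia, had 1.56, 0.80 and 0.17 against 2.34, 3.00 and 1.03, lower in 3 of 3 animals although the groups overlapped (mean log2 ratio -1.63, standard error 0.61, edgeR adjusted p = 0.21, DESeq2 adjusted p = 0.0234). Col26a1 hardly differed, at a mean log2 ratio of 0.01 (standard error 0.08). Schwann cell markers had medians of -0.11, 3.04 and 0.39 over 7 genes in animals 1, 2 and 3, beside log2 ratios of -0.46, -1.95 and -2.48 for Col28a1. Of the 7, 1 lay above 0 and 0 below 0 in all 3 animals. Their summed TPM was 357.4, 619.5 and 255.3 in the lesions against 398.7, 201.1 and 253.8 in the circle of Willis. The part of Schwann cells in the value of Col28a1 was not tested.

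Over all chains, 5 did not overlap between the groups with the lesions higher (12.2%, where 7.42% of genes did so) and 6 with the lesions lower (14.6%, where 10.7% did so). The higher ones were Col15a1, Col20a1, Col2a1, Col6a2 and Col6a5, and the lower ones were Col4a6, Col13a1, Col9a2, Col19a1, Col25a1 and Col8a2.

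Several enzymes that modify and process collagen had higher levels in the lesions of animals 2 and 3. Among 25 tested genes of collagen biosynthesis, an unadjusted edgeR p under 0.05 was reached by 13 with the lesion higher and by 2 with the lesion lower. Of all genes tested, 8.63% were higher and 12.0% lower by that p. The adjusted p was passed by 0 of the 25 in edgeR and by 9 higher and 0 lower in DESeq2, where 5.47% and 6.44% of all genes were called. The medians were 0.02, 0.90 and 0.89 in animals 1, 2 and 3, the same order as for the fibrillar chains. P4ha3, a prolyl hydroxylase subunit, had a TPM of 1.64, 53.6 and 18.5 in the lesions against 0.54, 1.55 and 2.42 in the circle of Willis (mean log2 ratio 3.21, standard error 0.98). Bmp1, the procollagen C-proteinase, had 42.7, 93.2 and 79.1 against 29.4, 39.3 and 38.3, and was higher in 3 of 3 animals (mean log2 ratio 0.97, standard error 0.16). The direction was not shared by the 2 genes lower at the unadjusted p. Adamts2, a procollagen N-proteinase, had a mean log2 ratio of -0.56 (standard error 0.21), and P3h2 one of -1.25 (standard error 0.64). Adamts14, a related proteinase of the same list, was higher in 3 of 3 animals, at a mean log2 ratio of 0.72 (standard error 0.17).

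Among 14 tested genes of collagen receptors and collagen breakdown, 7 were higher and 2 lower by the same unadjusted p, and DESeq2 called 7 higher and 1 lower. The shares of all genes tested were 8.63% higher and 12.0% lower by that p, and 5.47% and 6.44% in DESeq2. Mmp2, a gelatinase that also cuts type IV collagen, had a TPM of 74.7, 149.7 and 208 in the lesions against 34.9, 39.4 and 37.8 in the circle of Willis (mean log2 ratio 1.85, standard error 0.36). Ddr2, a receptor of fibrillar collagen, was lower, with 11.7, 19.6 and 9.84 against 24.02, 45.5 and 15.4 (mean log2 ratio -0.95, standard error 0.18).

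Macrophage markers had medians of -0.15, 0.61 and 0.95 over 7 genes and a summed TPM of 659.1, 1393 and 2434 in the lesions against 718.0, 514.3 and 695.9. Of the 7, 1 lay above 0 and 1 below 0 in all 3 animals. These were Cd68, at log2 ratios of 1.21, 2.20 and 3.73, and Cd163, at -1.59, -1.48 and -0.63. The part of macrophages in the values above was not tested.

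Fibroblast markers were on the whole lower beside the higher fibrillar chains. Of 9 fibroblast markers, 6 lay below 0 and 2 above 0 in all 3 animals, and the medians were -0.26, -0.41 and -0.25. Their summed TPM was 1068, 1472 and 1256 in the lesions against 1460, 2075 and 1559 in the circle of Willis, and none was at 0. Pi16, a marker of adventitial fibroblasts, had 40.2, 30.97 and 32.1 against 100.3, 50.3 and 76.8 TPM (mean log2 ratio -1.07, standard error 0.16), and Dpt, a matrix protein that speeds collagen fibril assembly, had 25.5, 19.1 and 44.6 against 18.5, 9.14 and 22.8 (mean log2 ratio 0.85, standard error 0.13). The other marker above 0 in all 3 animals was Lum, a proteoglycan of collagen fibrils, at log2 ratios of 0.12, 0.54 and 1.06. Which cells held the collagen transcripts was not tested in this bulk RNA.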

How the data were processed

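Stranded libraries of polyadenylated RNA were sequenced from the lesion and the circle of Willis of each of 3 rats. Read pairs were aligned by the authors to Rnor6 with CLC genomics workbench; CASAVA appears in the submitters' processing notes. The deposited table gives, per gene and library, a raw count of reads and a TPM (scaled by gene length and to the same total per library), which are used here. Its RPKM and CPM columns and the authors' own comparisons (fold changes, p-values) were not used. No source used here says whether counting used strand.

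Counts were tested with edgeR (version 4.0.16, R version 4.3.3) using quasi-likelihood F tests (glmQLFTest), TMM normalization and a block for each animal. After filterByExpr, 15367 genes remained, and Benjamini-Hochberg adjustment ran over all of them with a threshold of 0.05. DESeq2 (version 1.42.0) and limma-voom (limma version 3.58.1) were alternatives, as were other scalings, filters, fold thresholds and each animal left out. The pairing comes from the animal. The deviations of its 2 libraries from the group means correlated across genes at 0.389, 0.30 and 0.0688 in animals 1, 2 and 3. P-values rest on 3 animals, and counts under about 10 per library are the least precise. The steps were tested on simulated data.

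All chains are accounted for, and values per library are given for those over 1.5-fold in 3 animals, the 2 with the highest TPM of each class, those with an unadjusted edgeR p under 0.05 and those of the 9 ratios. Members and gene lists were chosen with earlier results of these data known, and after the supplementary tables of the study had been read. Promoters are RefSeq windows of GRCr8, matched by symbol.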

Additional observations from a re-analysis of the deposited data

How the results depend on the processing

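The count of chains called at an adjusted p under 0.05 was 0 in either direction with edgeR under each scaling and filter, without the replicate block and with each animal left out, and with limma-voom. DESeq2 called 11 higher and 4 lower. Without the replicate block, the chains at an unadjusted edgeR p under 0.05 numbered 15 higher and 6 lower, against 12 and 7 with it, and no adjusted call differed. Leaving out an animal moved the chains at an unadjusted p under 0.05 from 2 to 20 for higher and from 4 to 7 for lower, and those over 1.5-fold in the animals left from 4 to 18 for higher and from 5 to 11 for lower. The 20, 18 and 11 came without animal 1. Without animal 2 or 3 the fold counts were 4 higher and 5 lower, as with all animals, and the cause was not tested. The chains over the fold threshold in all 3 animals numbered 8 higher and 7 lower at a lower threshold and 1 higher and 3 lower at 2-fold, and 2 higher and 5 lower from TPM. Of the 30 chains described by the rule, 29 kept the direction of their mean log2 ratio under 13 alternatives each, and Col26a1, at 0.01, did not. The collagen share of TPM kept its direction under each alternative, from 0.62 without Col1a1 and Col3a1 to 1.71 without animal 1 on the log2 scale. Without mitochondrially encoded genes and Ptgds, an alternative chosen after seeing the data, it was 0.94, and the exact permutation p was 0.5 in place of 0.25. The ratio of Col4a3 to Col4a4 had no stable sign, from -0.11 to 0.22 with an animal left out. The planned ratios with Col1a2 and Col6a3 were not run. The scalings moved the median of all genes by less than 0.1 on the log2 scale.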
